A study of Mus musculus with 88 samples.

Results

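The 42 genes described here encode proteins of the chemical synapse. They were chosen by name: every row of the count table whose Ensembl identifier maps to a listed symbol in GENCODE M21 was taken, and all 42 of 42 symbols were found among the 54532 genes of the table. Of these, 29 act on the presynaptic side and 13 on the postsynaptic side. All 42 passed the filter on low counts in every comparison.

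Transmitter is stored in synaptic vesicles, which dock at a protein-dense active zone and fuse with the membrane when SNARE proteins zip together after calcium enters. Synaptotagmins sense that calcium, complexins and Unc13 proteins prepare the vesicle for release, and dynamin and its partners bring vesicle membrane back. Opposite the release site, scaffold proteins of the Dlg, Shank, Homer and Dlgap families hold receptors and the kinase CaMKII in the postsynaptic density, while gephyrin does so at inhibitory synapses. Neurexins and neuroligins join both membranes across the cleft.

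The data are polyadenylated RNA counts from cortex of male and female C57BL/6 mice aged 8 to 9 weeks. Injured mice received a controlled cortical impact, a piston strike on exposed cortex, over the right somatosensory area under isoflurane, followed by buprenorphine and saline. Punches of 4 mm were taken from the injured right side and from the opposite left side 24 h or 72 h later from perfused mice, and naive mice gave a right and a left punch. No sham-operated mice are among the samples, so craniotomy, anaesthesia and analgesia cannot be told apart from the impact. In the text, "injured side" means the right punch, also in naive mice, and "opposite side" the left one.

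The comparisons used 13 injured-side libraries from naive mice, 15 at 24 h and 14 at 72 h, and 13, 15 and 15 from the opposite side. Library totals ran from 10.6 to 26.36 M counts with a median of 16.25 M. Naive mice belonged to batches A and B, 24 h mice to the same batches, and 72 h mice to batches B and C. Batch C held 72 h libraries only, so with batch as a term the 72 h difference from naive rests on the 4 injured-side and 5 opposite-side 72 h libraries of batch B. The female 72 h animal LF3 was left out. Its injured punch had the lowest total and 759 CPM (counts scaled to library size) of the astrocyte gene Gfap, against 2610 to 4160 CPM in the other female 72 h injured punches, and its Slc17a7 level was 10100 CPM on both sides. The injured-side library of the 72 h animal PF1, labelled female, had 0.112 CPM of Xist and 60.2 CPM of the Y-linked Ddx3y, whereas its opposite-side library had 485 and 0 CPM, so the labels of this pair go against the data. PM1, also of 72 h, was the mirror image, with 489 CPM of Xist and 0 CPM of Ddx3y in the injured-side library and 0.184 and 56.3 CPM in the opposite one. Whether both injured-side libraries were exchanged was not tested. That of PM1, whose labels give both sexes, entered no group, and PF1 was kept as labelled, as a female and as a pair. Without PF1, 38 of the 42 genes fell on the injured side at 72 h (21.7% of all genes), against 37 with it (22.6%). Lower than on the opposite side were 41 without PF1 and 41 with it (30.4% and 30.6% of all genes).

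Upstream sequence was available for 35 of the 42 genes in RefSeq (GRCm38.p6), in windows from 250 bases before to 50 bases after the start. The 250 upstream bases are shown for Stx1a, which had the most negative fold changes, for Homer1, whose 2 sides diverged most with time, for Syn2, which did not fall with the others, and for its paralogue Syn1. Each is written 5′ to 3′ along the strand of the gene, with matched motifs in capitals.
Stx1a, chr5:135023232-135023481, plus strand: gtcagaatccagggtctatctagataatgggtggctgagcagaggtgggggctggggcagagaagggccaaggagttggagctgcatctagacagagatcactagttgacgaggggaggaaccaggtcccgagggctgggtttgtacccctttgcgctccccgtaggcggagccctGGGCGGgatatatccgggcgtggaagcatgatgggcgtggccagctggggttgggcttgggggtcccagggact
Homer1, chr13:93303507-93303756, plus strand: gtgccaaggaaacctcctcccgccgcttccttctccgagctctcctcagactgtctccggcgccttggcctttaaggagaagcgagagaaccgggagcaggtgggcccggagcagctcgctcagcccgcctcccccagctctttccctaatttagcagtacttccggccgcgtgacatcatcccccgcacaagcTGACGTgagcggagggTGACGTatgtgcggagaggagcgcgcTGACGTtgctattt
Syn1, chrX:20920919-20921168, minus strand: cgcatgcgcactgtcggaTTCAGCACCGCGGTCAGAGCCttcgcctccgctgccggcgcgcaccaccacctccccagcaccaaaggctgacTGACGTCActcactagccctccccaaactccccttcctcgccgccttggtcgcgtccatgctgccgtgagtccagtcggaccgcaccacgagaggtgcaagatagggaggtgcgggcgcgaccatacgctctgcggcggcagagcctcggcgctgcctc
Syn2, chr6:115134652-115134901, plus strand: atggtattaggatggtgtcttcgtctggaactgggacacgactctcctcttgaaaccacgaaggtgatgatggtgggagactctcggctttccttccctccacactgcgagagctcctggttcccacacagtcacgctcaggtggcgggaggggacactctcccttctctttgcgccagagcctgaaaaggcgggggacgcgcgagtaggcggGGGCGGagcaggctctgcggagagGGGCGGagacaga
The motifs searched on both strands were the GC box GGGCGG, the cAMP response element TGACGTCA and its half-site TGACGT, the NRF1 palindrome, and the RE1 consensus of the repressor REST with up to 4 mismatches over its 21 bases. A half-site lies inside each full cAMP element, and the half-site was added after the Homer1 sequence had been read. Only the 250 bases before the start were searched in each window, and every share below refers to them. The GC box was in 22 of 52 promoter windows of these genes (42.3%), against 32.7% of all 32851 windows. The windows of these genes also held more G and C, with a median of 58.2%, against 52.4% over all windows. The part of this in the share of GC boxes was not tested. Syn1 held the only RE1 match among the 35 genes (0.0548% of all windows) and, with Sh3gl2, a full cAMP element (1.55% of all windows). Homer1 held 3 half-sites, and 0.152% of all windows held at least as many. Bsn held the only NRF1 site (0.782% of all windows). The Homer1 and Syn1 windows belong to RefSeq starts inside the genes as GENCODE draws them. The bases shown for Homer1 lie wholly within the gene so drawn, and those for Syn1 in part. A match of letters says nothing of binding, and no binding or methylation was measured.

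At 24 h, release and scaffold genes were lower on the injured side, and the decrease was not shared by all. Of the 29 presynaptic genes 16 fell and 2 rose, and of the 13 postsynaptic genes 10 fell and none rose, by edgeR's quasi-likelihood test at an adjusted p under 0.05 over 19062 genes. Among all genes tested 25% fell and 25.8% rose. The median log2 fold change was -0.19 for presynaptic and -0.41 for postsynaptic genes, and 0.00 over all genes. In bulk tissue, fewer cells of a type and less RNA per cell cannot be told apart.

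By 72 h the decrease covered nearly the whole set. Of the presynaptic genes 25 of 29 fell, of the postsynaptic genes 12 of 13 fell, and none rose, where 22.6% of all genes tested fell and 25.7% rose. The median log2 fold change against naive was -0.69 for presynaptic and -0.79 for postsynaptic genes. The 5 that did not pass were Syn2 (0.14 ± 0.14 SE), Amph (0.01 ± 0.13), Slc17a7 (-0.10 ± 0.14), Nlgn1 (-0.25 ± 0.15) and Pclo (-0.39 ± 0.17). Set directly against 24 h, the 72 h punches were lower in 22 presynaptic and 10 postsynaptic genes and higher in none, where 14.7% of all genes tested fell and 18.5% rose. With LF3 kept, 19 were lower and 1 higher, where 15.3% of all genes fell and 21.7% rose.

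**Figure D1:**
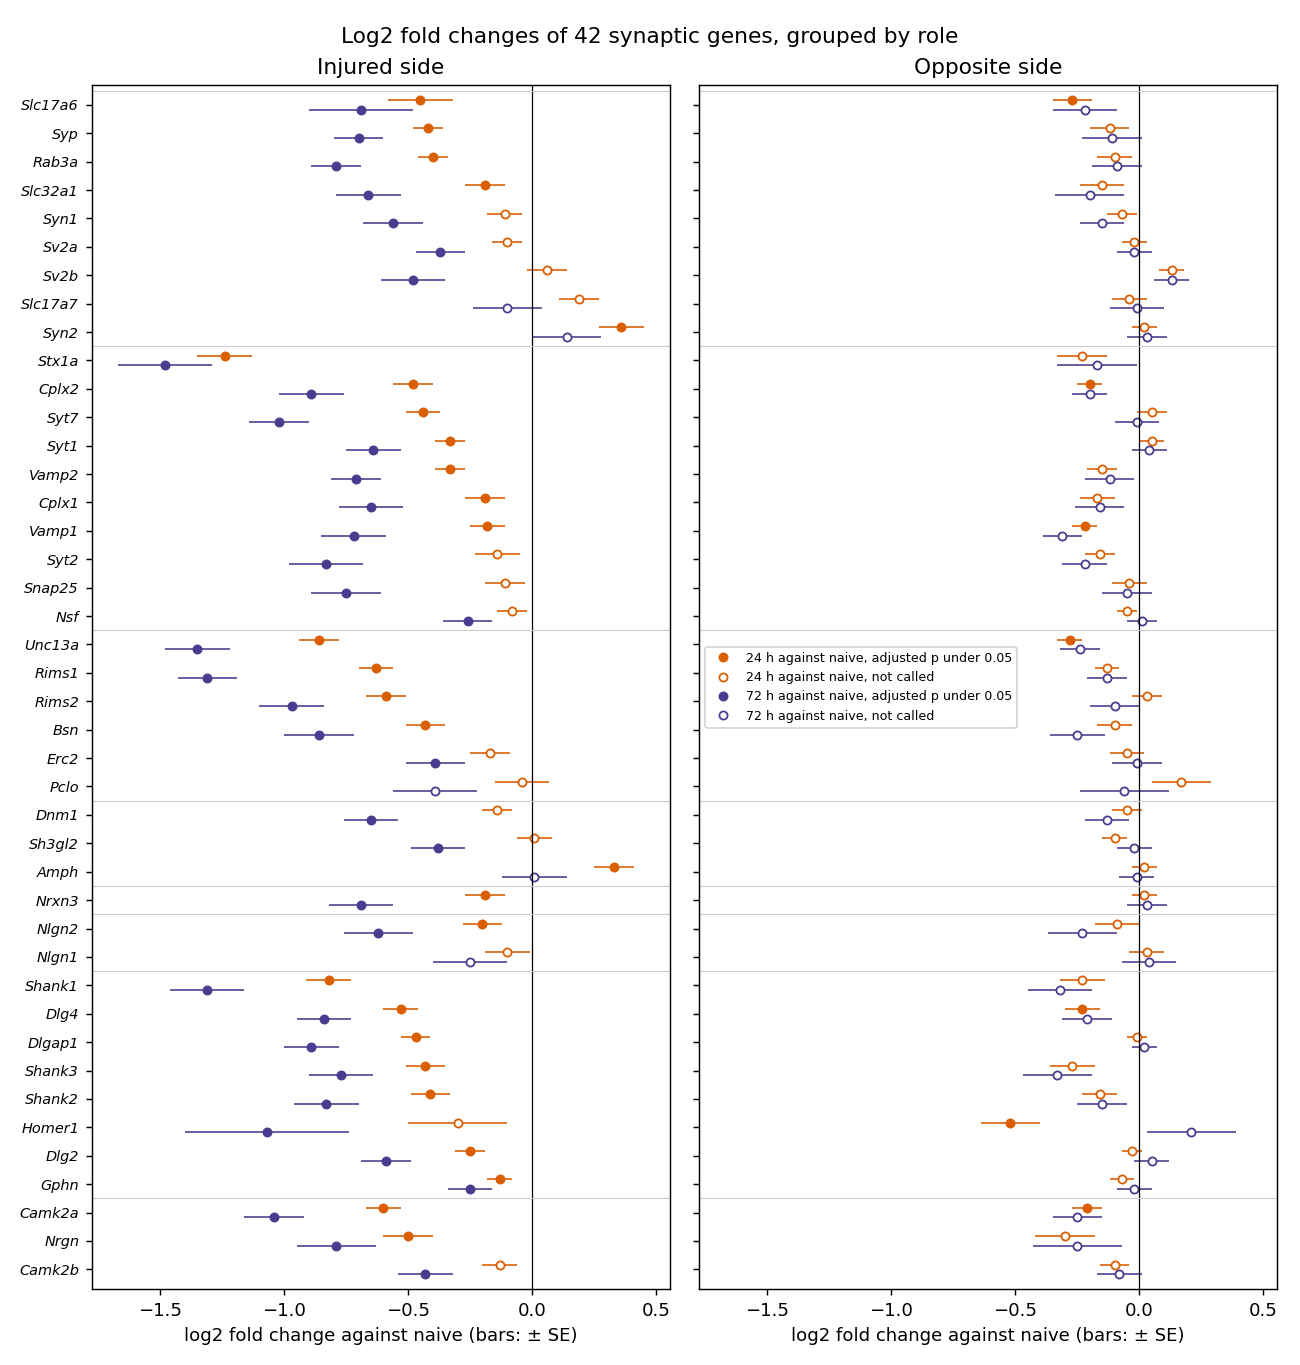
Log2 fold change against naive (horizontal axis, with bars of 1 SE) of each of the 42 genes at 24 h (orange) and 72 h (purple), for the injured side on the left and the opposite side on the right, with filled points for an adjusted p under 0.05. Injured-side points at 72 h lie mostly left of those at 24 h, down to -1.48 for Stx1a, while opposite-side points stay between -0.52 and 0.21.

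The fusion machinery gave the largest single change. Stx1a, the plasma membrane SNARE syntaxin 1A (chromosome 5, 135023482 to 135051100, GRCm38), had a lowest, median and highest level of 229, 352 and 521 CPM in naive right punches. At 24 h these were 110, 161 and 227 CPM and at 72 h 103, 155 and 216 CPM on the injured side. Every injured punch at both times lay below every naive one. Within naive mice the level differed by batch, with 229 to 382 CPM (median 332) in batch A and 421 to 521 CPM (median 478) in batch B. Injured-side medians at 24 h were 135 CPM in batch A and 207 CPM in batch B, and at 72 h 180 CPM in batch B and 151 CPM in batch C. The log2 fold change was -1.24 ± 0.11 (adjusted p = 1.96e-12, edgeR) at 24 h and -1.48 ± 0.19 (adjusted p = 2.18e-08) at 72 h, and the 72 h punches did not differ from those at 24 h beyond their error (-0.24 ± 0.17, adjusted p = 0.295). That p-value does not show that both times were equal. In the paired model given below, the injured minus opposite difference of Stx1a was more negative at 72 h (median -1.32) than at 24 h (median -1.04), and this change was called.

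Snap25, the SNARE that pairs with syntaxin, had 1440, 2510 and 2890 CPM in naive right punches, 1890, 2240 and 2530 CPM at 24 h and 920, 1370 and 1690 CPM at 72 h. The 24 h range lay inside the naive one, and 10 of the 14 punches at 72 h lay below all naive ones. At 24 h the batches differed in direction. In batch A the 24 h median was 2240 CPM (1890 to 2370), against 2600 CPM (2320 to 2890) in naive mice. In batch B it was 2320 CPM (2020 to 2530), against 2190 CPM (1440 to 2590). The log2 fold change of Snap25 was -0.11 ± 0.08 (adjusted p = 0.29, edgeR) at 24 h and -0.75 ± 0.14 (adjusted p = 2.45e-05) at 72 h. Between the times Snap25 fell by 0.64 on the log2 scale (adjusted p = 0.000173).

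Of the 10 genes for calcium sensors, SNAREs and their partners, 7 fell at 24 h and all 10 at 72 h. The calcium sensor Syt7, linked to slower forms of release, had 257, 377 and 469 CPM in naive right punches, 223, 296 and 310 CPM at 24 h and 149, 205 and 239 CPM at 72 h, when no punch overlapped the naive range. Its log2 fold change was -0.44 ± 0.07 at 24 h and -1.02 ± 0.12 at 72 h (adjusted p = 1.42e-09, edgeR). The fast sensor Syt1 fell by 0.33 and 0.64 at the 2 times on the log2 scale, whereas Syt2, its counterpart in fast interneurons and hindbrain synapses, had -0.14 ± 0.09 (not called) and -0.83 ± 0.15. Of the vesicle SNAREs, Vamp2 had log2 fold changes of -0.33 and -0.71 and Vamp1 of -0.18 and -0.72. Of the complexins, which clamp and aid fusion, Cplx2 had -0.48 and -0.89 and Cplx1 -0.19 and -0.65. Nsf, the ATPase that takes used SNARE complexes apart, changed least of the 10 at 72 h (-0.26 ± 0.10).

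The active zone group had the lowest presynaptic median, -0.51 at 24 h and -0.91 at 72 h, with 4 and 5 of its 6 genes called. Unc13a, which primes vesicles for fusion (chromosome 8, 71624417 to 71671757), had 458, 545 and 676 CPM in naive right punches, 263, 307 and 371 CPM at 24 h and 151, 233 and 277 CPM at 72 h. No injured punch reached the naive range. Its log2 fold change was -0.86 ± 0.08 (adjusted p = 2.74e-12, edgeR) at 24 h and -1.35 ± 0.13 (adjusted p = 3.64e-11) at 72 h.

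Rims1, a scaffold that ties calcium channels to docked vesicles (chromosome 1, 22286251 to 22805994), had 276, 395 and 476 CPM in naive right punches, 218, 246 and 276 CPM at 24 h and 104, 143 and 193 CPM at 72 h. Groups touched at 24 h and were apart at 72 h. Its log2 fold change was -0.63 ± 0.07 (adjusted p = 1.31e-09, edgeR) at 24 h and -1.31 ± 0.12 (adjusted p = 1.61e-11) at 72 h.

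Its paralogue Rims2 had 79.7, 157 and 194 CPM in naive right punches, 76.8, 96.4 and 118 CPM at 24 h and 45.8, 62.7 and 77.8 CPM at 72 h, with log2 fold changes of -0.59 ± 0.08 and -0.97 ± 0.13. At 24 h 1 of 15 punches lay below all naive ones, and at 72 h all 14 did. Of the large active zone proteins, Bsn had log2 fold changes of -0.43 and -0.86, while Pclo (-0.04 and -0.39) and the cytomatrix protein Erc2 at 24 h (-0.17) did not pass the test. Erc2 fell by 0.39 at 72 h.

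Vesicle proteins and transporters were the mixed group: 4 of 9 fell and 1 rose at 24 h, and 7 of 9 fell at 72 h. Syn2, a synapsin that tethers vesicles in the reserve pool (chromosome 6, 115134902 to 115282006), had 371, 383 and 490 CPM in naive right punches, 418, 523 and 647 CPM at 24 h and 262, 413 and 554 CPM at 72 h. At 24 h 11 of 15 punches were above all naive ones, and at 72 h 5 were above and 3 below. It rose by 0.36 ± 0.09 on the log2 scale at 24 h (adjusted p = 0.00076, edgeR), and the 72 h value of 0.14 ± 0.14 was not called (adjusted p = 0.458) and was -0.01 without PF1. Syn1, whose protein has the same role, had -0.11 ± 0.07 (not called) at 24 h and fell by 0.56 at 72 h.

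The other vesicle proteins differed in time course. Syp, or synaptophysin, had log2 fold changes of -0.42 and -0.70 at 24 h and 72 h, and the docking GTPase gene Rab3a of -0.40 and -0.79. The glycoprotein genes Sv2a (-0.10 and -0.37) and Sv2b (0.06 and -0.48) passed at 72 h only, and whether the 2 times differ was tested: 72 h was lower than 24 h for both (adjusted p = 0.0199 and 0.0006, edgeR).

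Transporters that load vesicles separate neuron classes. Per kb of exon, naive right punches held 246 CPM of Slc17a7, the glutamate transporter of cortical excitatory neurons, 6.24 CPM of Slc17a6, used mainly by thalamic and other subcortical ones, and 25.8 CPM of Slc32a1, the GABA and glycine transporter. Slc17a7 had a lowest, median and highest level of 896, 1250 and 1960 CPM in naive right punches, 1400, 1610 and 1840 CPM at 24 h and 827, 1320 and 1780 CPM at 72 h. These ranges overlap throughout, and neither log2 fold change was called (0.19 ± 0.08, adjusted p = 0.0648, and -0.10 ± 0.14, adjusted p = 0.591, edgeR). With LF3 kept, the 72 h value became 0.96 ± 0.30 and was called (adjusted p = 0.00719). Slc32a1 had log2 fold changes of -0.19 and -0.66, and Slc17a6 of -0.45 and -0.69, all called. Part of the Slc32a1 exon sequence (24.9%) overlaps a gene on the other strand, as does 16.8% of that of Syp, and the strand setting of the counting is not given in the sources used here.

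Of 3 genes of vesicle retrieval, Amph rose at 24 h. Amphiphysin, its product, brings dynamin to the neck of the forming vesicle. It had 186, 208 and 243 CPM in naive right punches, 199, 286 and 304 CPM at 24 h and 121, 207 and 276 CPM at 72 h. At 24 h 13 of 15 punches were above all naive ones, and at 72 h 5 were below them and 1 above. The log2 fold change was 0.33 ± 0.08 (adjusted p = 0.00062, edgeR) and 0.01 ± 0.13 (adjusted p = 0.941). Within batch B alone, neither Syn2 (0.22) nor Amph (0.21) passed at 24 h. Dnm1, the neuronal dynamin, had -0.14 and -0.65, and Sh3gl2, or endophilin A1, 0.01 and -0.38, each called at 72 h. Nrxn3, the neurexin of the set, had -0.19 and -0.69, both called.

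Of the postsynaptic scaffold genes 7 of 8 fell at 24 h and 8 of 8 at 72 h, and 7 of 8 were lower at 72 h than at 24 h. Shank1, the organiser of the deep layer of the density (chromosome 7, 44310253 to 44360572), had 576, 890 and 1200 CPM in naive right punches, 393, 501 and 613 CPM at 24 h and 278, 360 and 427 CPM at 72 h. Of 15 punches 14 lay below all naive ones at 24 h, and all 14 did at 72 h. Its log2 fold change was -0.82 ± 0.09 (adjusted p = 1.34e-10, edgeR) and -1.31 ± 0.15 (adjusted p = 1.08e-09). Shank2 (-0.41 and -0.83) and Shank3 (-0.43 and -0.77) fell at both times too.

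Dlg4, which encodes PSD-95, had 513, 739 and 970 CPM in naive right punches, 474, 533 and 633 CPM at 24 h and 328, 455 and 530 CPM at 72 h. The log2 fold change of Dlg4 was -0.53 ± 0.07 and -0.84 ± 0.11 (adjusted p = 1.93e-08 and 9.5e-08, edgeR), and 13 of 14 punches at 72 h lay below the naive range. Dlg2 (PSD-93) had -0.25 and -0.59, and Dlgap1, which links PSD-95 to Shank proteins, -0.47 and -0.89. Gphn, the gephyrin scaffold of inhibitory synapses, had 60.6, 65.9 and 79.3 CPM in naive right punches, 55, 63.1 and 69.5 CPM at 24 h and 42.4, 53.2 and 65.6 CPM at 72 h. Its log2 fold changes, -0.13 ± 0.05 and -0.25 ± 0.09 (adjusted p = 0.0365 and 0.016), were the smallest in size among the scaffolds at both times.

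Homer1, which links receptors to Shank proteins and whose short splice form is induced by activity, was the scaffold gene not called at 24 h. Its level was 191, 373 and 617 CPM in naive right punches, 142, 321 and 471 CPM at 24 h and 65.2, 111 and 243 CPM at 72 h. At 72 h 12 of 14 punches were below all naive ones. Within naive mice it differed by batch, with a median of 212 CPM in the 4 right punches of batch B and 380 CPM in the 9 of batch A. The log2 fold change was -0.30 ± 0.20 (adjusted p = 0.211, edgeR) at 24 h and -1.07 ± 0.33 (adjusted p = 0.00735) at 72 h, where it was -0.99 within batch B and lost the call with LF3 kept (-0.73, adjusted p = 0.0647). The gene counts do not separate its splice forms.

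Camk2a, the main kinase of the excitatory density, had 3580, 4320 and 4800 CPM in naive right punches, 1830, 3000 and 3360 CPM at 24 h and 1380, 2070 and 2310 CPM at 72 h. No injured punch reached the naive range. Camk2a had a log2 fold change of -0.60 ± 0.07 (adjusted p = 4.04e-09, edgeR) and -1.04 ± 0.12 (adjusted p = 2.95e-09). The second subunit, Camk2b, had 675, 807 and 1080 CPM in naive right punches, 663, 779 and 1080 CPM at 24 h and 441, 660 and 806 CPM at 72 h, with log2 fold changes of -0.13 ± 0.07 (not called) and -0.43 ± 0.11. Nrgn, or neurogranin, which holds calmodulin, had -0.50 and -0.79, both called.

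Of the neuroligins, Nlgn2, found at inhibitory synapses, fell by 0.20 and 0.62 on the log2 scale. Nlgn1, found at excitatory ones, had 40.5, 76 and 94.4 CPM in naive right punches, 50.2, 64.1 and 79.9 CPM at 24 h and 30.3, 50.4 and 60.3 CPM at 72 h. Its ranges overlapped, and neither log2 fold change was called (-0.10 ± 0.09 and -0.25 ± 0.15). An overlapping gene on the other strand covers 9.2% of its exon sequence.

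**Figure D2:**
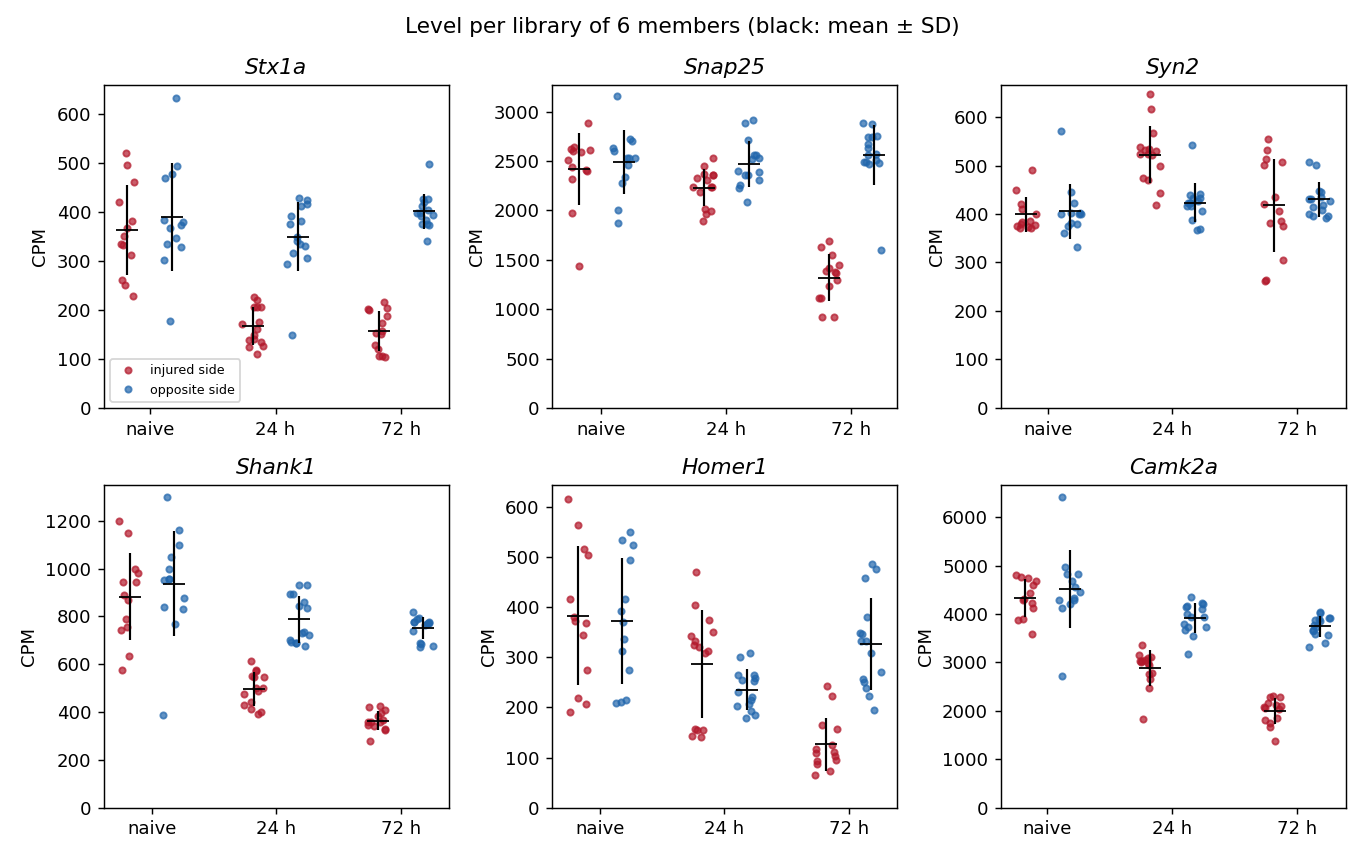
Level in CPM (vertical axis) of 6 genes in each library by time after injury, with red points for the injured side, blue points for the opposite side and black marks for the mean ± SD; the naive mice are shown by the same sides. Stx1a is already low at 24 h (110 to 227 CPM). Snap25 is lower at 72 h (920 to 1690 CPM) than at 24 h (1890 to 2530 CPM) on the injured side. Syn2 is above its naive median of 383 CPM in the 24 h injured punches.

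Counted by ranges, 6 genes had no overlap between 24 h and naive punches on the injured side (Rab3a, Syt1, Stx1a, Unc13a, Dlgap1 and Camk2a), and 20 had none at 72 h. Over all genes these shares were 7.27% and 16.8%. On the opposite side no gene of the set was apart from naive at either time, where 0.01% and 0.0451% of all genes were.

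The pre- and postsynaptic sides were also set against each other within each library, by the median over members of log2 CPM minus the naive mean. On the injured side the presynaptic level had a lowest, median and highest value of -0.10, -0.02 and 0.23 in naive mice, -0.40, -0.17 and -0.04 at 24 h and -1.14, -0.64 and -0.39 at 72 h. The postsynaptic level was -0.29, -0.02 and 0.22 in naive mice, -0.58, -0.32 and -0.21 at 24 h and -1.22, -0.70 and -0.48 at 72 h. The postsynaptic level was the lower of both in 15 of 15 injured punches at 24 h, with a median gap of -0.17, and in 14 of 14 at 72 h, with a median gap of -0.08. In naive right punches it was the lower in 7 of 13. On the opposite side it was the lower in 13 of 15 punches at 24 h and 13 of 15 at 72 h, with median gaps of -0.08 and -0.07, and in 5 of 13 naive left punches, with a median gap of 0.02. The gap at 72 h was thus of similar size on both sides. These are descriptions, since the members had been chosen with results of these data known.

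Within batches the order of times was the same. In batch B, the injured-side presynaptic level had a median of 0.09 in naive mice, -0.16 at 24 h and -0.60 at 72 h, and the postsynaptic level 0.00, -0.36 and -0.69. In batch A, the 24 h median was -0.17, against -0.05 in naive mice, for presynaptic genes and -0.28, against -0.02, for postsynaptic genes.

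**Figure D3:**
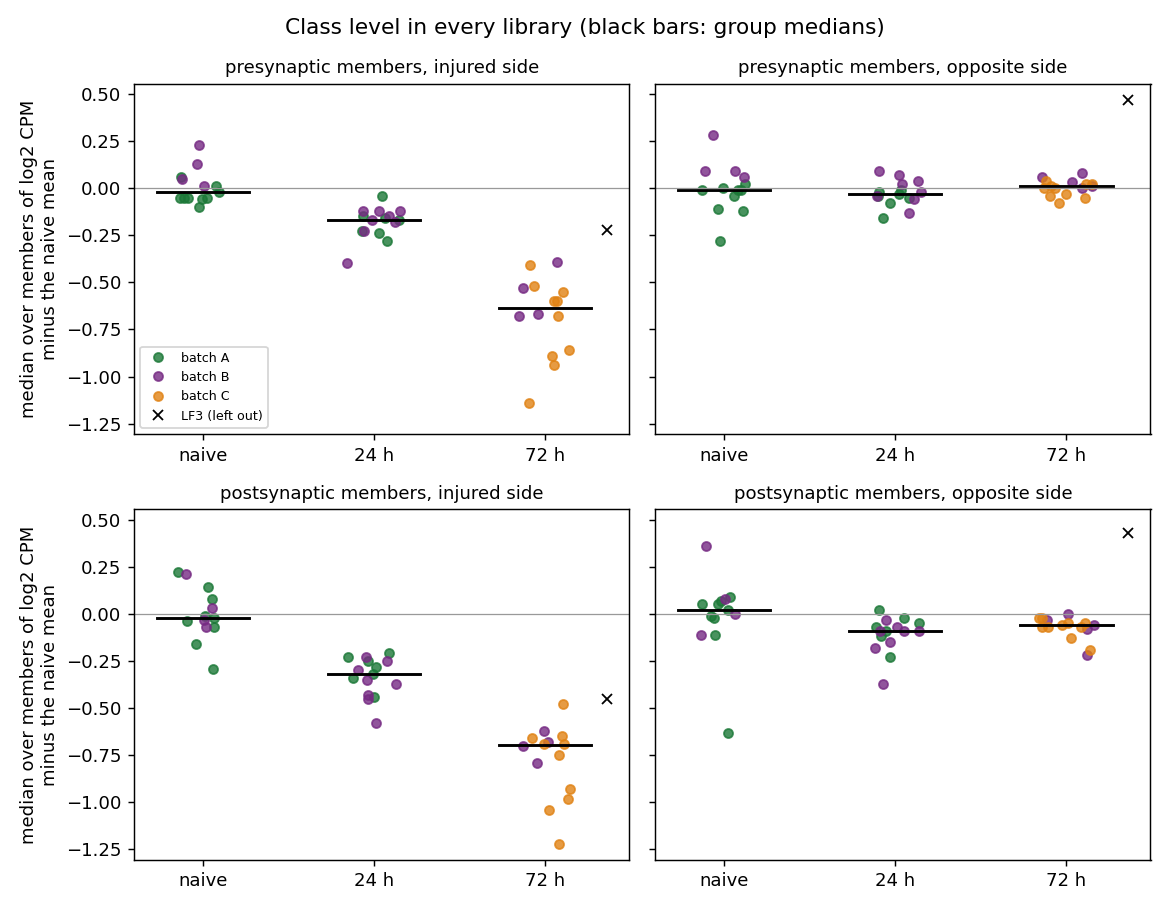
Median over presynaptic (top) and postsynaptic (bottom) genes of log2 CPM minus the naive mean in each library, by time, for the injured side (left) and the opposite side (right), coloured by batch, with black bars for group medians and a cross for LF3. All 14 injured punches at 72 h lie at -0.39 or below, while opposite-side medians stay between -0.09 and 0.02.

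On the opposite side the changes were few and small. At 24 h, 7 genes fell and none rose over 18429 genes tested, where 4.07% of all genes fell and 2.39% rose. They were named because they were so few, after their values had been seen. The presynaptic 4 were Unc13a (-0.28 ± 0.05), Slc17a6 (-0.27 ± 0.08), Vamp1 (-0.22 ± 0.05) and Cplx2 (-0.20 ± 0.05). The postsynaptic 3 were Homer1 (-0.52 ± 0.12), Dlg4 (-0.23 ± 0.07) and Camk2a (-0.21 ± 0.06).

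Homer1 moved furthest there. It had 178, 230 and 308 CPM at 24 h, against 208, 371 and 550 CPM in naive left punches, and 5 of 15 punches lay below all naive ones (adjusted p = 0.00472, edgeR). Within batches its median at 24 h was 265 CPM, against 416 CPM in naive mice, in batch A and 204 CPM, against 213 CPM, in batch B. Unc13a had 367, 475 and 535 CPM at 24 h, against 420, 589 and 678 CPM in naive left punches, with 1 punch below all naive ones (adjusted p = 0.00102). Camk2a, at 3170, 3930 and 4360 CPM, against 2720, 4450 and 6420 CPM in naive mice, overlapped fully, and so did Dlg4, at 518, 714 and 773 CPM, against 479, 764 and 1260 CPM. Vamp1 had 162, 189 and 236 CPM, against 164, 204 and 299 CPM in naive left punches, Cplx2 1020, 1220 and 1590 CPM, against 1010, 1310 and 1810 CPM, and Slc17a6 23.7, 28 and 33.5 CPM, against 23.5, 35.1 and 49 CPM.

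This count moves with single animals. The opposite punch of the naive male CM1 had a postsynaptic level of -0.63, where the other 5 naive males had 0.02 to 0.36. Without CM1, an alternative chosen after seeing the data, 16 genes fell and 1 rose (Sv2b, 0.15 ± 0.05), and all 7 were among the 16. The 9 added were Shank1, Shank2, Shank3, Nrgn, Stx1a, Cplx1, Slc32a1, Vamp2 and Syt2, from -0.38 ± 0.08 (Nrgn) to -0.18. Over all genes, 8.6% then fell and 5.19% rose. With LF3 kept, 3 genes fell, where 1.29% of all genes did.

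Cell type markers moved on the opposite side at 24 h too. The astrocyte gene Gfap (0.80 ± 0.25) and the monocyte receptor gene Ccr2 (1.61 ± 0.35) rose. The astrocyte transporter genes Slc1a2 (-0.19 ± 0.06) and Slc1a3 (-0.21 ± 0.05), the microglia gene P2ry12 (-0.27 ± 0.07) and the endothelial genes Cldn5 (-0.39 ± 0.11), Tie1 (-0.38 ± 0.07) and Kdr (-0.29 ± 0.09) fell. None of 8 oligodendrocyte genes was called, and 8 of 8 had positive values (median 0.14). Of the 12 pan-neuronal genes 1 rose and 1 fell, and of 8 striatum genes 1 fell. Summed levels were 4160 to 5170 CPM at 24 h, against 4060 to 7120 CPM in naive left punches, for astrocyte genes, 11.3 to 29.6 CPM, against 9.6 to 17.1 CPM, for infiltrating myeloid genes, and 289 to 356 CPM, against 282 to 446 CPM, for endothelial genes. For oligodendrocyte genes they were 1010 to 4470 CPM at 24 h, against 1470 to 2800 CPM in naive left punches. The part of these shifts in the fall of the 7 genes was not tested.

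At 72 h no gene of the set was called on the opposite side. The edgeR test called 17 of 18429 genes (none fell and 0.0922% rose). In it, 8 of the 42 and 1076 of the 18429 had an unadjusted p under 0.05. DESeq2 called none of the 42, where 0.038% of all genes fell and 0.19% rose. The median log2 fold change was -0.11, with single values from -0.33 (Shank3) to 0.21 (Homer1). Without CM1, Shank1 was called (-0.36 ± 0.08, adjusted p = 0.0465).

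Setting each animal's injured punch against its own opposite punch removed differences between animals and batches. In naive mice, none of the 42 differed between right and left, with log2 differences of -0.09 to 0.05. None of 19902 genes was called there by edgeR or DESeq2, none of the 42 had an unadjusted p under 0.05, and 745 of all genes did.

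At 24 h the injured side was lower for 17 presynaptic and 9 postsynaptic genes and higher for 3, Syn2 (0.30 ± 0.07), Amph (0.30 ± 0.06) and Slc17a7 (0.25 ± 0.07). Among all genes 25.6% were lower and 26% higher. At 72 h it was lower for 28 presynaptic and all 13 postsynaptic genes, Syn2 alone not being called (-0.06 ± 0.07), where 30.6% of all genes were lower and 33.6% higher. Per animal, Stx1a differed between injured and opposite punch by -1.48, -1.04 and -0.08 (lowest, median and highest log2 difference) at 24 h and by -1.87, -1.32 and -0.96 at 72 h. Rims1 differed by -0.63, -0.50 and -0.35 at 24 h and by -1.71, -1.26 and -0.82 at 72 h, and Shank1 by -0.90, -0.69 and -0.31 at 24 h and by -1.48, -1.01 and -0.86 at 72 h. For these genes every injured animal was lower on its injured side.

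The change of the side difference between 24 h and 72 h was tested in the same paired model. It was more negative at 72 h for 41 of 42 genes, 28 presynaptic and 13 postsynaptic, where 17.7% of all genes fell and 21.8% rose. Pclo was the exception (-0.26 ± 0.12, adjusted p = 0.0798). Genes that were raised at 24 h took part: Syn2 changed by -0.37 ± 0.09, Amph by -0.47 ± 0.09 and Slc17a7 by -0.43 ± 0.10.

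Homer1 changed most, by -1.56 ± 0.13 (adjusted p = 7.91e-13, edgeR). Its injured minus opposite difference was -0.73, 0.35 and 0.87 (lowest, median and highest) at 24 h, when 10 of 15 animals were higher on the injured side, and -1.77, -1.56 and -0.64 at 72 h, when all 14 were lower. Snap25 followed with -0.80 ± 0.08 (adjusted p = 4.74e-11) and Rims1 with -0.74 ± 0.07 (adjusted p = 3.17e-11).

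**Figure D4:**
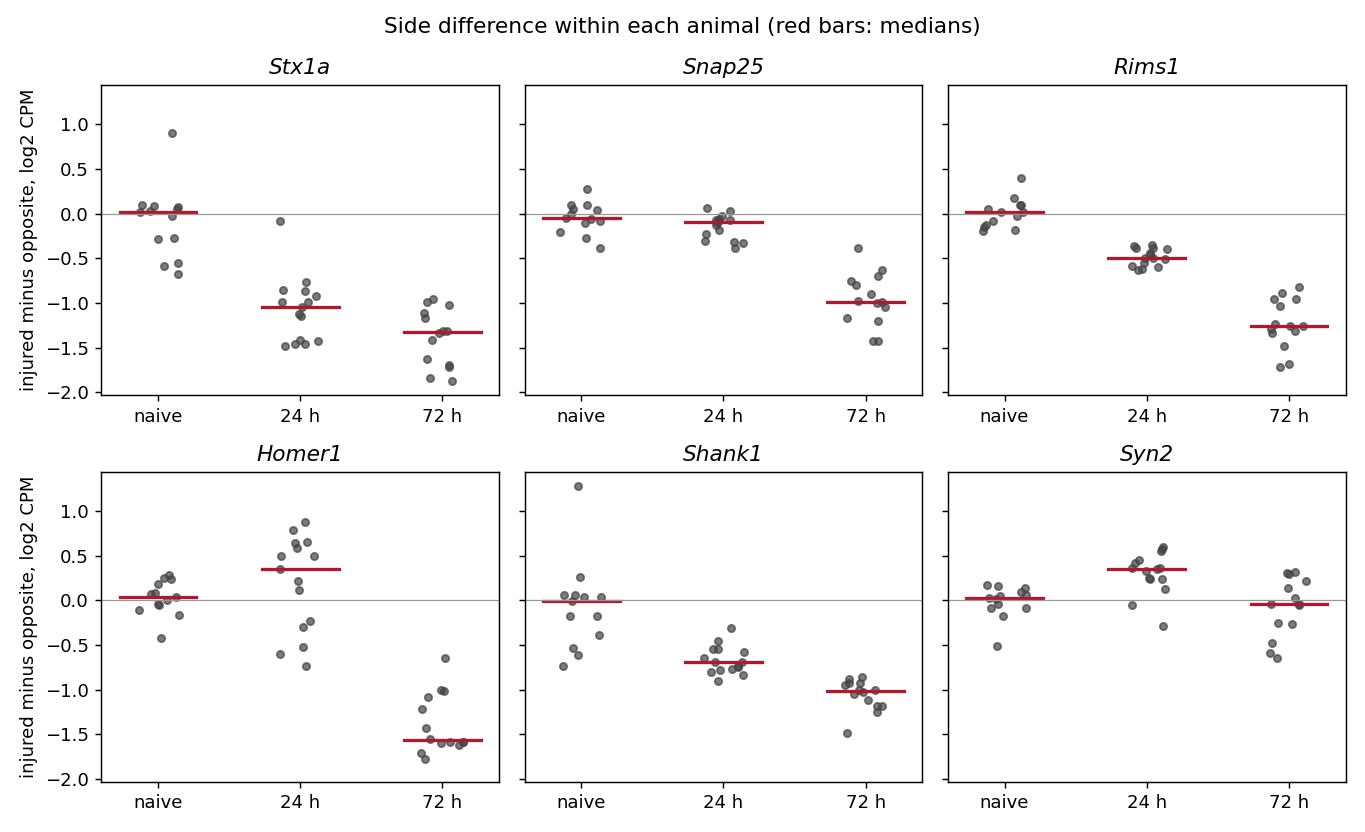
Injured minus opposite log2 CPM within each animal (vertical axis) for 6 genes, in naive mice (right minus left), at 24 h and at 72 h, with red bars for medians. Homer1 is scattered around 0 at 24 h (-0.73 to 0.87) and negative in all 14 animals at 72 h, and Stx1a is negative at both times.

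Females and males did not differ detectably in the injured-side response. No gene of the 19062 was called for a sex difference in the 24 h or 72 h change by edgeR, 517 and 707 had an unadjusted p under 0.05, and DESeq2 called 4 and 1. None of the 42 was called by either tool, and none had an unadjusted p under 0.05. Female minus male differences in log2 fold change were -0.13 to 0.22 at 24 h and -0.23 to 0.33 at 72 h, with SEs of 0.10 to 0.39, and differences of that size were not detectable with these numbers of animals. PF1, whose injured punch held Y-linked RNA, was counted as female at 72 h. Without PF1, edgeR called none of 19051 genes for a sex difference at either time. Then 516 genes at 24 h and 851 at 72 h had an unadjusted p under 0.05.

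Other synaptic genes were counted alongside. They are read against all genes tested on the injured side, of which 25% fell and 25.8% rose at 24 h and 22.6% fell and 25.7% rose at 72 h. Of 61 further release, active zone and endocytosis genes, 27 fell and 11 rose at 24 h and 31 fell and 3 rose at 72 h. Of 22 further adhesion genes 19 fell and 1 rose, then 18 fell and none rose, and of 28 further postsynaptic genes 22 fell and 1 rose, then 25 fell and 1 rose. Medians of the 3 lists were -0.12, -0.41 and -0.39 at 24 h and -0.37, -0.61 and -0.76 at 72 h.

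The smallest p-values at 24 h among those that fell belonged to the adhesion genes Lrrc4 (-0.74 ± 0.06) and Nlgn3 (-0.56 ± 0.06) and the endocytic scaffold gene Itsn1 (-0.36 ± 0.03). Among those that rose they belonged to Clstn2 (0.44 ± 0.06), Sv2c (1.35 ± 0.18), a vesicle protein prominent in basal ganglia, and the adaptor subunit gene Ap2a2 (0.44 ± 0.06). At 72 h, Napa (-0.61 ± 0.07), which assists Nsf, and the adhesion gene Clstn1 (adjusted p = 4.68e-10, edgeR) were among those with the smallest p-values that fell. The 4 that rose were Homer3 (1.82 ± 0.24), Sv2c (0.96 ± 0.27), the clathrin light chain gene Cltb (0.36 ± 0.11) and Ap2a2 (0.31 ± 0.10).

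Markers of cells and regions moved on the injured side together with these genes. The summed level of 8 infiltrating myeloid genes had a range of 9.73 to 31.4 CPM in naive right punches, 58.4 to 644 CPM at 24 h and 200 to 1160 CPM at 72 h, and 8 of 8 rose at both times. Of 8 microglia genes 2 rose and 5 fell at 24 h and 8 rose at 72 h, with ranges of 327 to 437, 307 to 404 and 1080 to 2040 CPM. Of 8 oligodendrocyte genes 4 and 7 rose (1470 to 5240, 2630 to 6970 and 2030 to 7320 CPM), and of 8 endothelial genes 4 rose and 1 fell, then 7 rose (307 to 371, 360 to 523 and 534 to 860 CPM). Of 8 astrocyte genes 3 rose and 4 fell, then 5 rose and 2 fell (3790 to 6750, 3830 to 5590 and 4090 to 7900 CPM).

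Genes of neighbouring regions moved too. Of 7 hippocampus genes 4 and 5 rose (22.6 to 31.2 CPM in naive right punches, 19.1 to 115 at 24 h and 20.4 to 136 at 72 h). Of 8 striatum genes 5 rose and 2 fell, then 4 rose and 2 fell (247 to 400, 306 to 458 and 207 to 399 CPM), and of 6 thalamus genes 1 rose and 3 fell, then 2 rose and 1 fell (30.2 to 48.5, 26.9 to 60.7 and 53.7 to 84.3 CPM). No marker of any list was at 0 throughout a group. The part of these shifts in the results was not tested.

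Genes found in all neurons gave a second scale. The summed level of 12 pan-neuronal genes was 6160 to 8340 CPM in naive right punches, 6880 to 7910 CPM at 24 h and 4280 to 6850 CPM at 72 h. Of them 3 fell at 24 h (median log2 fold change -0.08) and 10 at 72 h (median -0.37). Scaling the libraries to these genes moved the median of all genes to 0.39 at 72 h, so changes are then read relative to neuronal RNA.

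On that scale 12 presynaptic and 8 postsynaptic genes fell at 24 h and 3 presynaptic genes rose, Syn2 (0.44), Amph (0.40) and Slc17a7 (0.27), where 15.8% of all genes fell and 27% rose. At 72 h 17 presynaptic and 7 postsynaptic genes fell and the same 3 rose (0.53, 0.41 and 0.32), where 5.54% of all genes fell and 46.2% rose. Stx1a (-1.03), Unc13a (-0.95), Rims1 (-0.92), Shank1 (-0.88), Camk2a (-0.62) and Syt7 (-0.60) were still lower at 72 h, whereas Syn1 (-0.15), Sv2a (0.04), Erc2 (-0.01), Sh3gl2 (0.01), Gphn (0.14) and Camk2b (-0.02) were among those no longer called. The step between 24 h and 72 h shrank to 4 genes, Rims1 (-0.36), Syt2 (-0.35), Syt7 (-0.25) and Vamp1 (-0.22), where 2.19% of all genes fell and 38.5% rose.

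On the opposite side, 4 genes fell at 24 h on the pan-neuronal scale, Homer1 (-0.48), Unc13a (-0.23), Dlg4 (-0.19) and Cplx2 (-0.15), where 1.92% of all genes fell and 2.07% rose. At 72 h none was called, where 0.00543% fell and 0.0651% rose. Between sides, 24 genes were lower and 3 higher on the injured side at 24 h (22.4% and 24.5% of all genes), and 28 lower and 4 higher at 72 h (8.28% and 63.1%). The 4 were Syn2 (0.37), Amph (0.27), Slc17a7 (0.25) and Nsf (0.11). The side difference changed between the times for 7 genes, led by Homer1 (-1.13) and Snap25 (-0.37), where 2.15% of all genes fell and 58.5% rose.

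**Figure D5:**
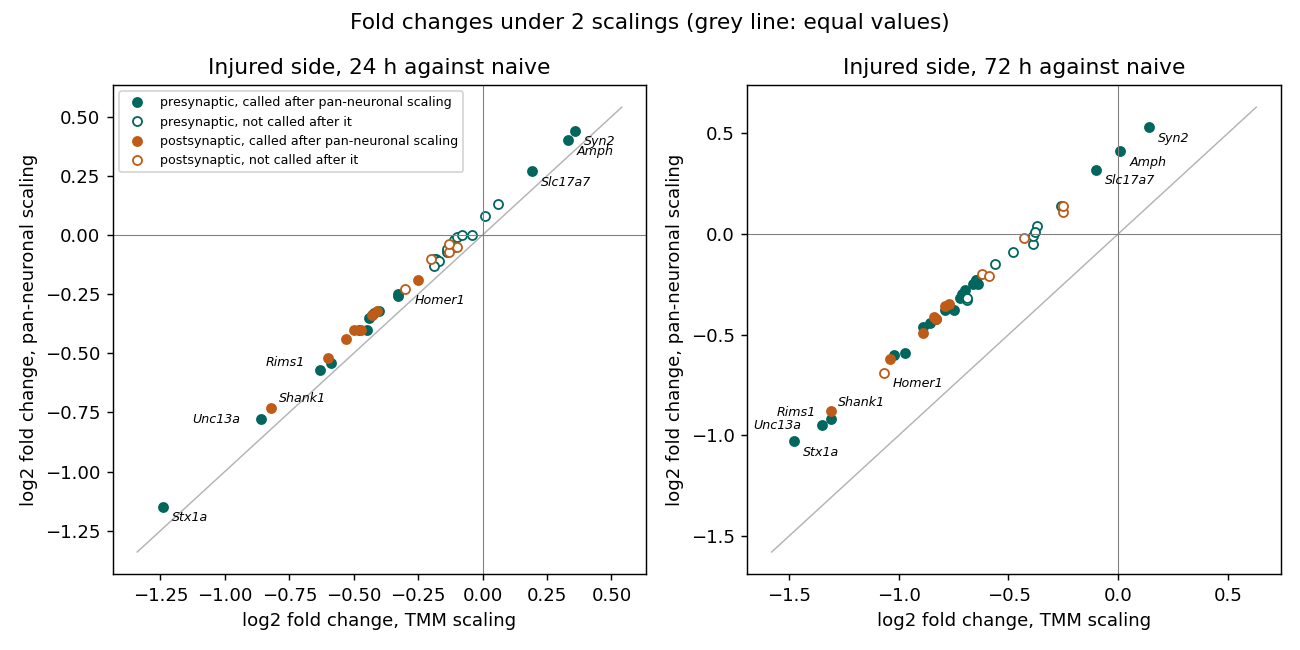
Log2 fold change against naive on the injured side of each of the 42 genes under scaling to all genes (horizontal) and to pan-neuronal genes (vertical), at 24 h (left) and 72 h (right), with filled points for an adjusted p under 0.05 on the pan-neuronal scale. Points lie above the line of equal values, further so at 72 h, where Syn2, Amph and Slc17a7 are above 0 and Stx1a is at -1.03.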

How the data were processed

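The submitters' processing notes name HISAT2 2.0.5 and the build mm10. How genes were counted, and whether by strand, is not given in the sources used here. For each of 88 libraries of 44 animals, the table deposited by the authors holds raw counts per Ensembl gene. Symbols and coordinates came from GENCODE M21 (GRCm38), and 37 genes without a symbol held 0.013% of counts. Counts were scaled by TMM, filtered with filterByExpr and tested by quasi-likelihood in edgeR 4.0.16, under R 4.3.3 with limma 3.58.1, each side separately, with sex by time groups and batch, contrasts being averaged over sexes. Side differences used both punches of 42 animals as labelled, PF1 included, with the animal as block. Both punches of an animal deviated together with a median correlation of 0.22 (-0.01 to 0.64). CPM are TMM-scaled, with a prior count of 2 on the log2 scale. The exceptions are the CPM of Gfap, Xist and Ddx3y given to check LF3, PF1 and PM1, which are scaled to library totals alone. Benjamini-Hochberg adjustment ran over every gene in a fit. The labels name separate animals, so spread is between animals.

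Members, lists and tests were chosen with earlier results of these data known. Values per group are given for the 4 presynaptic and 3 postsynaptic members with the most negative and the 2 and 2 with the most positive fold change on the injured side at each time, and for members called in a comparison with 5 or fewer calls. Of other synaptic genes, the 3 with the smallest p in each direction are named, except 1 at 72 h that is not reported here. Values per group of Snap25, Slc17a7 and the 7 genes called on the opposite side at 24 h were added after they were seen. On simulated counts for the 24 h comparison of the injured side (19062 genes), 73.1% of genes changed by 1.5-fold and 85.1% of those changed by 2-fold were recovered, and 5.1% of calls were false. For the 72 h comparison of that side these were 43.3%, 70.1% and 4.2%, so smaller changes were missed more often in that simulation. Each simulation changed only 67 genes by 1.5-fold, 67 by 2-fold and 66 by 4-fold, and held no batch effect. In the data 25% of genes fell and 25.8% rose at 24 h. The shares recovered and false therefore need not hold for the comparisons reported. The closest pair of libraries in a group differed by a chi-square of 2.64 per gene, so none was taken as a duplicate. DESeq2 1.42.0 was an alternative.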

Additional observations from a re-analysis of the deposited data

Results flagged for a closer look

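The level of each class was examined in each group of libraries for a library far from the rest, in 24 tests. Chance gives about 1 such library in 20 independent tests. Both class levels come from the same libraries, so these tests are not independent. The opposite punch of the naive male CM1 had a postsynaptic level of -0.63 (log2 CPM minus the naive mean), against 0.02 to 0.36 in the other naive males. The opposite punch of the female 72 h animal SF2 had -0.13, against -0.07 to -0.02 in its group.

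The difference between injured and opposite punch changed between 24 h and 72 h for 41 of 42 genes by a test of that change in the paired model. It was -1.56 for Homer1, -0.80 for Snap25 and -0.74 for Rims1 on the log2 scale (72 h minus 24 h).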

How the results depend on the processing

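Alternatives kept 239 counts and medians within 1.5 times or 1 SD, and 25 moved. The 239 include counts that were 0 in both fits, such as those for sex differences, so the tally is no measure of stability. Of values for named genes, 235 kept direction and call, 6 lost the call, 4 gained it and 8 reversed. The cause of each was not tested.

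Injured side, 24 h: 0 rose in batch B alone, where 21.9% of all genes did. The presynaptic median was -0.29 there and -0.11 with pan-neuronal scaling. Leaving out the low-count filter gave 20 that fell (11.8% of all genes) and keeping LF3 19 (20.1%), against 26 (25%). Injured side, 72 h: 24 fell and 3 rose with pan-neuronal scaling (5.54% and 46.2% of all genes), with medians of -0.28 presynaptic and -0.36 postsynaptic. With LF3 kept, 1 rose (27.8% of all genes). Between 72 h and 24 h, 19 fell and 1 rose with LF3 kept (15.3% and 21.7% of all genes) and 4 fell with pan-neuronal scaling (2.19%).

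On the opposite side at 24 h, 4 fell without the filter (1.21% of all genes fell), with pan-neuronal scaling (1.92%) or without a batch term (2.81%), 3 with LF3 kept (1.29%), 2 in batch A (0.677%) or in males (2.56%), 1 in females (0.277%), and 16 fell and 1 rose without CM1 (8.6% and 5.19%), an alternative chosen after seeing the data. At 72 h there, 8 fell without a batch term, where 7.3% of all genes did, against 0 with it, and 1 without CM1 (0.0805%).

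Between sides, 16 fell in females alone at 24 h (17.5% of all genes), and 4 rose with pan-neuronal scaling at 72 h (63.1%). With that scaling 7 changes of the side difference remained called, where 2.15% of all genes fell and 58.5% rose. With no replicate block (unpaired), 24 fell at 24 h (24.7% of all genes), against 26 in the paired model (25.6%). At 72 h 41 fell in both (29.9% and 30.6%).

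Reversed values at 24 h: Nlgn1 0.16 in batch B. At 72 h: Syn2 -0.01 without PF1; Amph -0.13 without PF1, -0.14 without a batch term, -0.05 in batch B and -0.05 in females; Gphn 0.14 and Nlgn1 0.11 with pan-neuronal scaling. None of these was called in the fit reported except Gphn.

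Limits: at 72 h few libraries bridge the batches, no sham group separates surgery from impact, and gene counts give no splice forms.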

Other observations

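LF3, the 72 h female left out of the comparisons, stood apart in a transporter gene and in other measures. Its Slc17a7 level was 10100 CPM in the injured punch and 10100 CPM in the opposite punch. The other 72 h animals had 827 to 1780 CPM in injured punches and 1320 to 1790 CPM in opposite ones. Its Syn2 level was 708 CPM in the injured and 603 CPM in the opposite punch, above the highest values of the other 72 h animals on those sides (554 and 507 CPM). Its class levels were -0.22 presynaptic and -0.45 postsynaptic in the injured punch and 0.47 and 0.43 in the opposite punch (log2 CPM minus the naive mean). Mitochondrial genes held 10.48% of the counts of its injured punch and 7.8% of those of its opposite punch. In the other 72 h libraries they held 2.8% to 4.11%. Xist was at 114 CPM in the opposite punch of LF3, against 455 to 593 CPM in the other female 72 h opposite punches.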
